A study of Mus musculus with 20 samples.

Results

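The adult hemoglobin genes Hba-a1, Hba-a2, Hbb-bs and Hbb-bt and the erythroid heme gene Alas2 were examined in the hippocampus of mice infused with human small RNAs. The members were the rows of the raw count table with one of these 5 names, 5 of 25190 genes, and each name matched 1 row. All 5 were detected in each of the 20 libraries and entered each test. RNA was sequenced from male wild-type mice of strain C57BL/6JOlaHsd, 4 months old, 5 in each of 4 groups, with tissue taken 24 hours past the last behavioral test. Artificial cerebrospinal fluid was given to the Vehicle group and small RNAs (sRNAs) of control individuals, extracted from hippocampus and pooled, to the Control group. The Pool 1 and Pool 2 groups were each infused with sRNAs of a separate cohort of patients with schizophrenia. All groups, Vehicle included, carried bilateral cannulas in the dorsal CA1 region. Each sRNA group received 1 pool, so the donors behind it are not replicates. The mice were killed by cervical dislocation, and the methods name no perfusion. P-values measure the spread between the mice of these groups.

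Hemoglobin is a tetramer of α and β chains that each hold a heme group, and it carries oxygen in red blood cells. Mature mouse red cells have no nucleus, but young red cells (reticulocytes) still carry large amounts of polyadenylated globin mRNA, so brain tissue that holds blood yields globin reads. Low hemoglobin expression has also been described in neurons and glia. In bulk tissue, fewer cells of a type and less RNA per cell cannot be told apart, nor can globin RNA of blood be told from globin RNA of brain cells. Hba-a1 and Hba-a2 encode the α chain and lie in tandem on chromosome 11. Hbb-bs and Hbb-bt encode the adult β chain in the haplotype of C57BL/6 mice and lie in tandem on chromosome 7. Alas2, on chromosome X, encodes the erythroid form of 5-aminolevulinate synthase, which makes the first committed precursor of heme.

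The genes were placed on GRCm38 with GENCODE M21. Hba-a1 (ENSMUSG00000069919.7) is at chr11:32283511-32284465 and Hba-a2 (ENSMUSG00000069917.7) at chr11:32296489-32297298, both on the plus strand. Hbb-bs (ENSMUSG00000052305.6) is at chr7:103826534-103828096 and Hbb-bt (ENSMUSG00000073940.3) at chr7:103812524-103813996, both on the minus strand. Each of the 4 globin genes has 3 exons. Alas2 (ENSMUSG00000025270.13) is at chrX:150547375-150570638 on the plus strand, with 11 exons in its main transcript. The annotated span of Apex2, a DNA repair gene on the minus strand at chrX:150519519-150589868, covers all of Alas2. The kit marks strand, but the strand setting of the counting is not given in the sources used here. Reads from sequence that transcripts of both genes cover can be told apart only if strand was used. Most of the Alas2 transcript is not shared in this way, as the windows given below show. Apex2 itself had 4.60 to 6.76 CPM (counts scaled to a common library total) over the 20 libraries.

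The genes of a pair are near copies. The coding sequences of Hba-a1 and Hba-a2, 429 bases each with the stop codon, differed at 1 base, C381T, counted from the A of the start codon with the base of Hba-a1 first. Those of Hbb-bs and Hbb-bt, 444 bases each, also differed at 1 base, C417T, with the base of Hbb-bs first. Both differences leave the protein unchanged. The translated α chains were identical over 142 residues and the β chains over 147, counting the first methionine, whereas α and β shared 62 aligned residues (42.2% of the longer chain). The stretches around these bases are shown because they decide which gene a coding read is counted for. They lie in the last exon at chr11:32284294-32284391, chr11:32297111-32297208, chr7:103826665-103826741 and chr7:103812656-103812732, read on the strand of the gene, and the capital marks the base that differs within the pair.
Hba-a1: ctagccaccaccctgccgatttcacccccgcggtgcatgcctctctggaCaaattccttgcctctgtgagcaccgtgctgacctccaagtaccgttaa
Hba-a2: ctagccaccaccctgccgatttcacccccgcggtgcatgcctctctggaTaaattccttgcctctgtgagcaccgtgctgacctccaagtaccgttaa
Hbb-bs: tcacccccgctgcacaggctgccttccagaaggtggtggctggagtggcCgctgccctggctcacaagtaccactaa
Hbb-bt: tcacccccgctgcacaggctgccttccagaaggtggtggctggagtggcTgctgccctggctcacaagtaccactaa
The reads were 50 bases long, and the counting mode used for these files counts only reads that map to 1 place. Of the 650 possible 50-base windows of the main Hba-a1 transcript, 211 (32.5%) occur in no other gene's annotated transcripts. For Hba-a2 this holds for 66 of 505 (13.1%), for Hbb-bs for 198 of 579 (34.2%), for Hbb-bt for 273 of 654 (41.7%) and for Alas2 for 1713 of 1988 (86.2%). The windows that were not unique were shared within a pair for the globin genes, and with Apex2 or Mir3620 for Alas2. The GENCODE start of Hba-a1 lies 161 bases upstream of the RefSeq start, and from the RefSeq start only 50 of 489 windows (10.2%) of Hba-a1 were unique. The globin counts are therefore counts of the part of each transcript that differs between the copies, and the division of reads within a pair is uncertain.

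The region upstream of the RefSeq start is shown for 1 gene of each pair as a description. The part of this region in the members' values was not tested. The sequences are the 250 bases before the RefSeq start on GRCm38.p6, at chr11:32296242-32296491 for Hba-a2 (plus strand) and chr7:103827929-103828178 for Hbb-bs (minus strand). Both stretches end inside the GENCODE gene spans given above, by 3 bases for Hba-a2 and by more for Hbb-bs. The main Hbb-bs transcript itself does not begin upstream of the RefSeq start. Capitals mark matches, on either strand, to the GATA word (GATA with A or T before it and A or G after it), to CACCC, to CCAAT and to TATAA.
Hba-a2: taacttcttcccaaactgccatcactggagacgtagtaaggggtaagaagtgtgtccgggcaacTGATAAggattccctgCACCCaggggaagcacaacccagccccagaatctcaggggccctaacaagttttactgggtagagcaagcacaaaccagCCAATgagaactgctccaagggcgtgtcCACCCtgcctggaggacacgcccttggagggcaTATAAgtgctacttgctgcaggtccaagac
Hbb-bs: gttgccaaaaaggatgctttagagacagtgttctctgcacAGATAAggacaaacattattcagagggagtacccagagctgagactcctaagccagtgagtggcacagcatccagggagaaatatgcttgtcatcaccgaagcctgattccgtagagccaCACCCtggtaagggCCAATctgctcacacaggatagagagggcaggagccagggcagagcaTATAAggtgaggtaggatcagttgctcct
RefSeq promoters were found for all 5 genes. The promoters of Hba-a1 and Hba-a2 share an unbroken run of 297 of 300 bases. Those of Hbb-bs and Hbb-bt have 185 identical aligned bases of 250. TATAA starts 30 bases before the start in Hba-a2, 29 in Hbb-bs and 28 in Hbb-bt. The GATA word was found in Hba-a1, Hba-a2, Hbb-bs and Alas2, and none in this window of Hbb-bt. CACCC was found in all 5 genes and CCAAT in the 4 globin genes. Of 32536 distinct promoter windows of this length, 26.5% hold the GATA word, 52.1% CACCC, 33.8% CCAAT, 22.7% TATAA and 1.08% all 4. Such matches are letters in a window and show no binding.

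The depth was similar in the 4 groups, with 20588280 to 25543939 counts per library. Over the 20 libraries, Pearson's r of log2 CPM with log2 total counts ran from −0.53 for Hba-a1 to −0.25 for Alas2. The part of depth in the members' values was not tested. Counts were scaled to CPM with TMM factors, and a count of 3, taken as the floor, is 0.117 to 0.146 CPM. The tissue label was checked by 8 hippocampal neuron genes, which summed to 7713 to 10814 CPM in each library. Of the libraries, Pool 2 replicate 1 and Vehicle replicate 4 stood apart. The former was the highest of the 20 libraries for 11 of 13 lymphocyte and monocyte genes, 7 of 11 neutrophil genes, 7 of 8 microglia genes and 11 of 14 endothelial genes. Vehicle replicate 4 had 9074 CPM summed over 8 choroid plexus genes, against 96.0 to 2316 CPM in the Control, Pool 1 and Pool 2 libraries. Thalamus genes summed to 84.8 to 215 CPM outside Pool 2 and up to 477 CPM in Pool 2 replicate 4. Results for the 5 genes, and the list counts given below, are shown with and without these libraries where they change.

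Counted hemoglobin reads were a small share of each library. Reads from sequence shared within a pair are not counted, so the shares below understate hemoglobin RNA. The counts of the 4 globin genes summed to between 834 in Control replicate 4 and 3840 in Pool 2 replicate 1. These are 0.00333% (95% exact binomial interval 0.00311 to 0.00356, counting error only) and 0.0178% (0.0172 to 0.0184) of the counts, with a median of 0.00609% over the 20 libraries. The share averaged 0.00521 ± 0.00162% in Vehicle mice, 0.00664 ± 0.00193% in Control mice, 0.00509 ± 0.00122% in Pool 1 mice and 0.00878 ± 0.00536% in Pool 2 mice (SD, n = 5 each). Scaled to the length that is unique to each gene, the mean over the 20 libraries was 24.6 CPM per 100 unique windows for Hbb-bs, 4.52 for Hba-a1, 1.73 for Hba-a2, 1.72 for Hbb-bt and 0.163 for Alas2. Counted from the RefSeq start only, the value was 19.1 for Hba-a1 and 2.35 for Hbb-bt. On this scale Hbb-bs was the highest of the 5 genes, Hba-a1 came next and Alas2 was the lowest with either start, and the order of Hba-a2 and Hbb-bt depended on the start used.

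Hbb-bs, the β chain gene with the larger counts, carried most of the globin counts. In Vehicle mice, replicates 1 to 5 had 53.9, 29.4, 27.2, 32.7 and 44.9 CPM. In Control mice they had 60.5, 59.8, 49.2, 25.2 and 57.4 CPM. Control replicate 4 was the lowest of the 20 libraries, below each Vehicle library, while 3 Control libraries lay above all Vehicle libraries. In Pool 1 mice the values were 32.6, 39.0, 46.7, 29.3 and 49.9 CPM. In Pool 2 mice they were 140.2, 73.6, 40.3, 38.2 and 43.4 CPM. Replicates 1 and 2 of Pool 2 were the highest of all libraries and the other 3 lay inside the range of Pool 1, so the groups overlapped. The mean was 37.6 ± 11.4 CPM in Vehicle, 39.5 ± 8.85 in Pool 1, 50.4 ± 14.8 in Control and 67.1 ± 43.3 in Pool 2 (SD, n = 5 each).

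Hba-a1, the more counted α chain gene, followed the same order of libraries at its ends. In Vehicle mice, replicates 1 to 5 had 11.04, 6.36, 5.85, 7.46 and 12.3 CPM. In Control mice they had 11.4, 11.7, 9.80, 5.33 and 10.9 CPM. Control replicate 4 was again the lowest of the 20 libraries, and the other 4 Control libraries lay within a narrow range inside that of Vehicle mice. In Pool 1 mice the values were 6.51, 6.28, 11.5, 5.99 and 7.64 CPM. In Pool 2 mice they were 22.2, 11.96, 8.75, 8.68 and 9.24 CPM. Replicate 1 of Pool 2 stood far above all other libraries, and Pool 1 replicate 3 lay among the Control values. The mean was 7.58 ± 2.28 CPM in Pool 1, 8.60 ± 2.89 in Vehicle, 9.82 ± 2.61 in Control and 12.2 ± 5.75 in Pool 2.

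Hba-a2, the other α chain gene, had 8 to 54 counts per library, so counting error is a larger part of its spread. In Vehicle mice, replicates 1 to 5 had 1.22, 0.909, 0.686, 1.14 and 0.698 CPM. In Control mice they had 2.28, 1.63, 1.06, 0.636 and 1.19 CPM. Control replicates 1 and 2 exceeded all Vehicle libraries. In Pool 1 mice the values were 0.445, 1.52, 1.70, 0.345 and 1.04 CPM. In Pool 2 mice they were 2.47, 0.974, 0.917, 1.17 and 0.859 CPM. Replicate 1 of Pool 2 was again the highest, only just above Control replicate 1, and the other 4 Pool 2 libraries lay within the range of Pool 1. The mean was 0.931 ± 0.247 CPM in Vehicle, 1.01 ± 0.613 in Pool 1, 1.28 ± 0.676 in Pool 2 and 1.36 ± 0.624 in Control.

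Hbb-bt, the second β chain gene, had 50 to 233 counts per library. In Vehicle mice, replicates 1 to 5 had 4.76, 3.03, 5.01, 3.73 and 4.70 CPM. In Control mice they had 4.92, 5.24, 5.80, 1.99 and 6.54 CPM. Control replicate 4 was the lowest library, as for Hbb-bs and Hba-a1. In Pool 1 mice the values were 2.18, 3.45, 5.63, 3.06 and 4.11 CPM. In Pool 2 mice they were 10.6, 7.09, 3.83, 3.17 and 4.98 CPM. Pool 2 replicates 1 and 2 were the highest of the 20 libraries, as for Hbb-bs. The mean was 3.69 ± 1.29 CPM in Pool 1, 4.25 ± 0.836 in Vehicle, 4.90 ± 1.74 in Control and 5.94 ± 3.02 in Pool 2.

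Alas2, the erythroid heme enzyme, had 28 to 136 counts per library. In Vehicle mice, replicates 1 to 5 had 3.08, 1.99, 2.22, 1.23 and 2.09 CPM. In Control mice they had 3.62, 3.05, 2.49, 1.63 and 3.85 CPM. Vehicle replicate 4, the library rich in choroid plexus RNA, was the lowest of the 20 for Alas2, followed by Control replicate 4. In Pool 1 mice the values were 2.02, 2.29, 3.06, 2.11 and 3.32 CPM. In Pool 2 mice they were 6.22, 4.05, 2.58, 2.42 and 2.62 CPM. Both replicates 1 and 2 of Pool 2 were again the highest libraries. The mean was 2.12 ± 0.659 CPM in Vehicle, 2.56 ± 0.590 in Pool 1, 2.93 ± 0.897 in Control and 3.58 ± 1.61 in Pool 2.

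**Figure D1:**
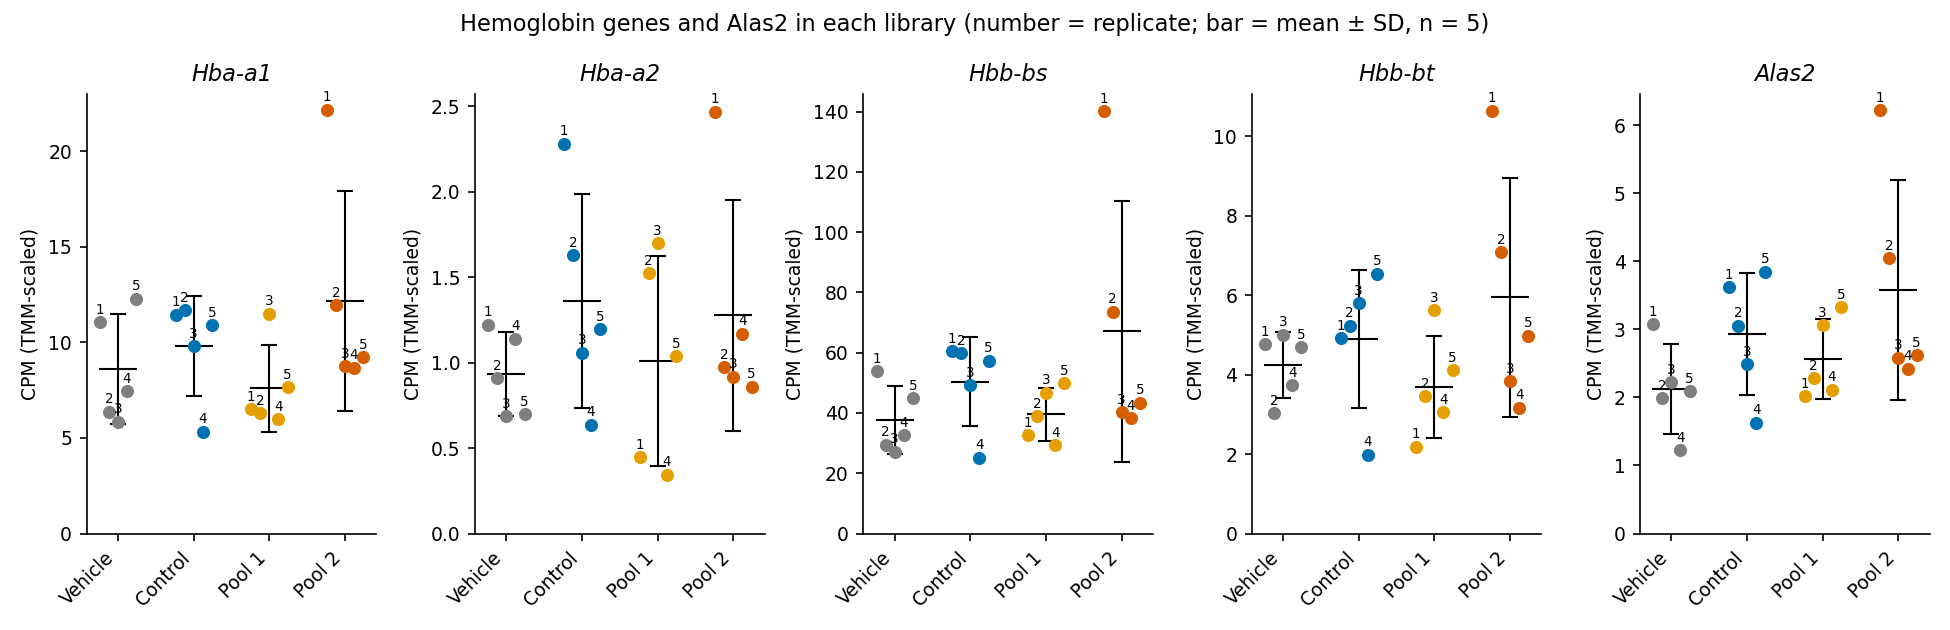
CPM of the 5 genes (y axis, linear from 0, a panel per gene) in the 4 groups, 1 point per mouse with its replicate number; bars are the mean ± SD (n = 5). Pool 2 replicate 1 is the highest point in each panel, with 140.2 CPM of Hbb-bs, and the groups overlap in all panels.

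Pool 2 had the highest group mean for 4 of the 5 genes, Hba-a2 being the exception. For each gene, every step between neighboring group means was smaller than the larger SD of the groups beside it. Pool 2 replicate 1 ranked highest of the 20 libraries for all 5 genes and Control replicate 4 ranked 18 to 20. The highest library exceeded the lowest by 4.16 times for Hba-a1, 5.06 for Alas2, 5.36 for Hbb-bt, 5.56 for Hbb-bs and 7.16 for Hba-a2. Within groups the coefficient of variation of Hbb-bs was 22.4% to 64.5%, whereas counting error alone gives 2.52% to 3.39%. For Hba-a2 it was 26.5% to 60.6%, and counting error gives 17.8% to 21.5%. The biological coefficient of variation fitted by edgeR was 0.331 for Hbb-bs, where the trend for genes of its level was 0.137. For Hba-a1 it was 0.299 against a trend of 0.198, and for Alas2 0.298 against 0.273.

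The ratio between the genes varied less than their levels. The count of Hbb-bs was 3.65 to 6.53 times that of Hba-a1 in the 20 libraries, a 1.79-fold range. Hba-a2 made up 5.38% to 19.5% of the α counts, and Hbb-bt 6.28% to 15.5% of the β counts. In Pool 2 replicate 1 these shares were 10.02% (95% exact binomial interval 7.62 to 12.9) and 7.06% (6.21 to 7.99). The medians over the 20 libraries were 10.3% and 8.73%, so the α share was near its median while the β share lay below it by more than counting error. Hbb-bs was 6.33 times Hba-a1 (median 4.89) and 22.6 times Alas2 (median 16.3) in that library. Relative to these medians, Hbb-bs was raised there by more than Hba-a1 and Alas2. Both ratios were higher in another library, with 6.53 in Pool 1 replicate 5 for Hba-a1 and 26.6 in Vehicle replicate 4 for Alas2.

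The 5 genes rose and fell together from mouse to mouse. Over the 20 mice, Pearson's r of log2 CPM (prior count of 2) was 0.595 to 0.929 in the 10 pairs, with a median of 0.781. Hba-a1 and Hbb-bs, genes of different chains on different chromosomes, had the highest value (r = 0.929, permutation p = 1e-05, the smallest that 100000 permutations can give; Spearman's rho 0.878, permutation p = 1e-05). Alas2 and Hbb-bs had r = 0.894 (permutation p = 1e-05) and rho 0.889 (permutation p = 1e-05). Hba-a2 and Alas2, the least counted genes, had the lowest r, 0.595 (permutation p = 0.0058, rho 0.632, permutation p = 0.00351). All tests were two-sided. The largest Benjamini-Hochberg adjusted p over the 10 pairs was 0.0058 for r and 0.0164 for rho.

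These relations did not rest on the extreme libraries alone. Without the 2 libraries farthest from the median of the first gene of a pair, r was 0.471 to 0.861 in 18 mice, with a largest adjusted permutation p of 0.0482. That left out Pool 2 replicate 1 in each pair. With values centred on the group means, r was 0.578 to 0.928. Without Vehicle replicate 4 and Pool 2 replicate 1, r was 0.517 to 0.900. The genes of a globin pair are near copies, whereas Hba-a1, Hbb-bs and Alas2 share no 50-base window with each other.

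**Figure D2:**
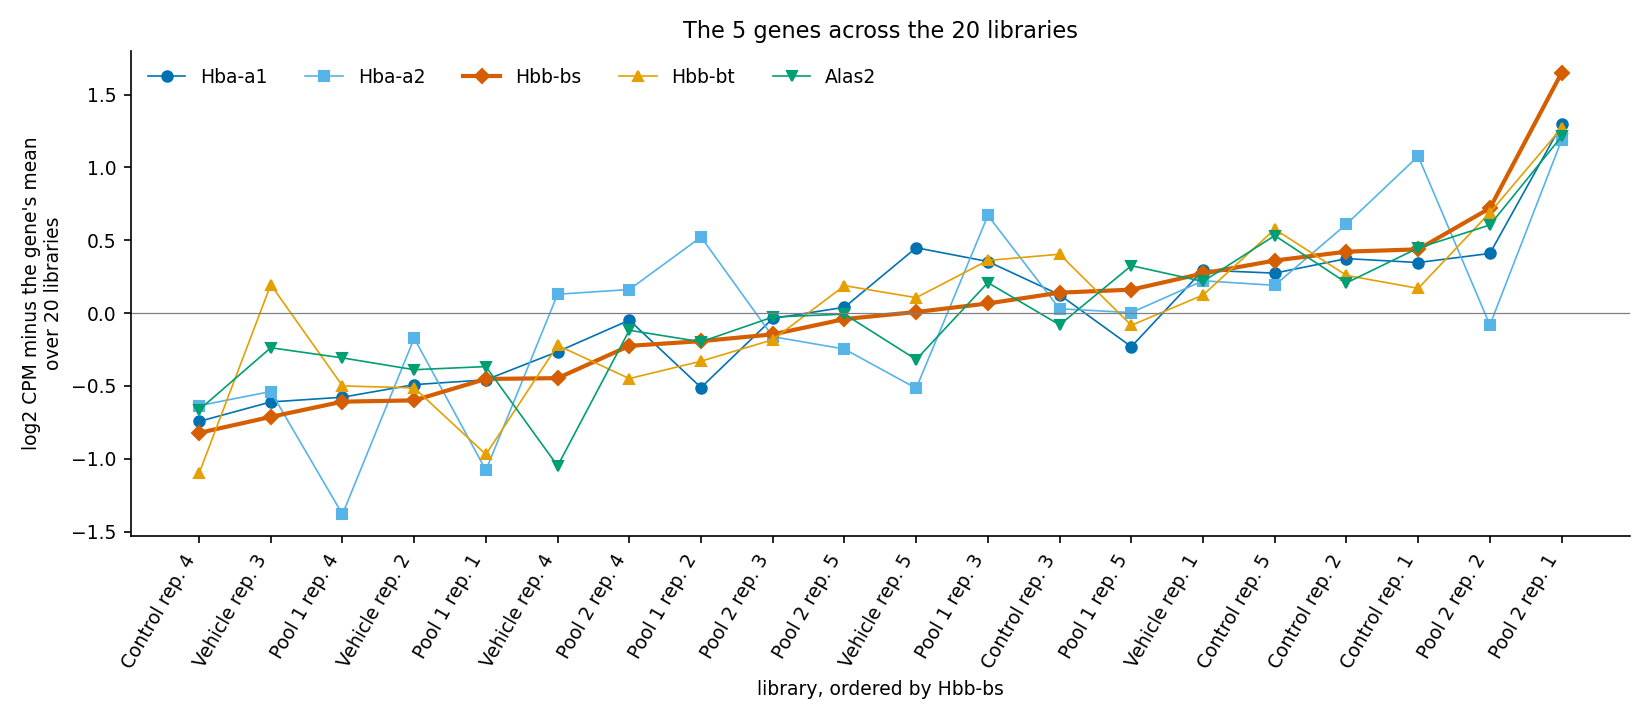
Log2 CPM of each gene minus its mean over the 20 libraries (y axis), with libraries ordered by Hbb-bs from lowest to highest (x axis), 1 line per gene. The lines run from Control replicate 4 at the low end to Pool 2 replicate 1 at the high end, and Hba-a2, with 8 to 54 counts, strays farthest from the others.

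**Figure D3:**
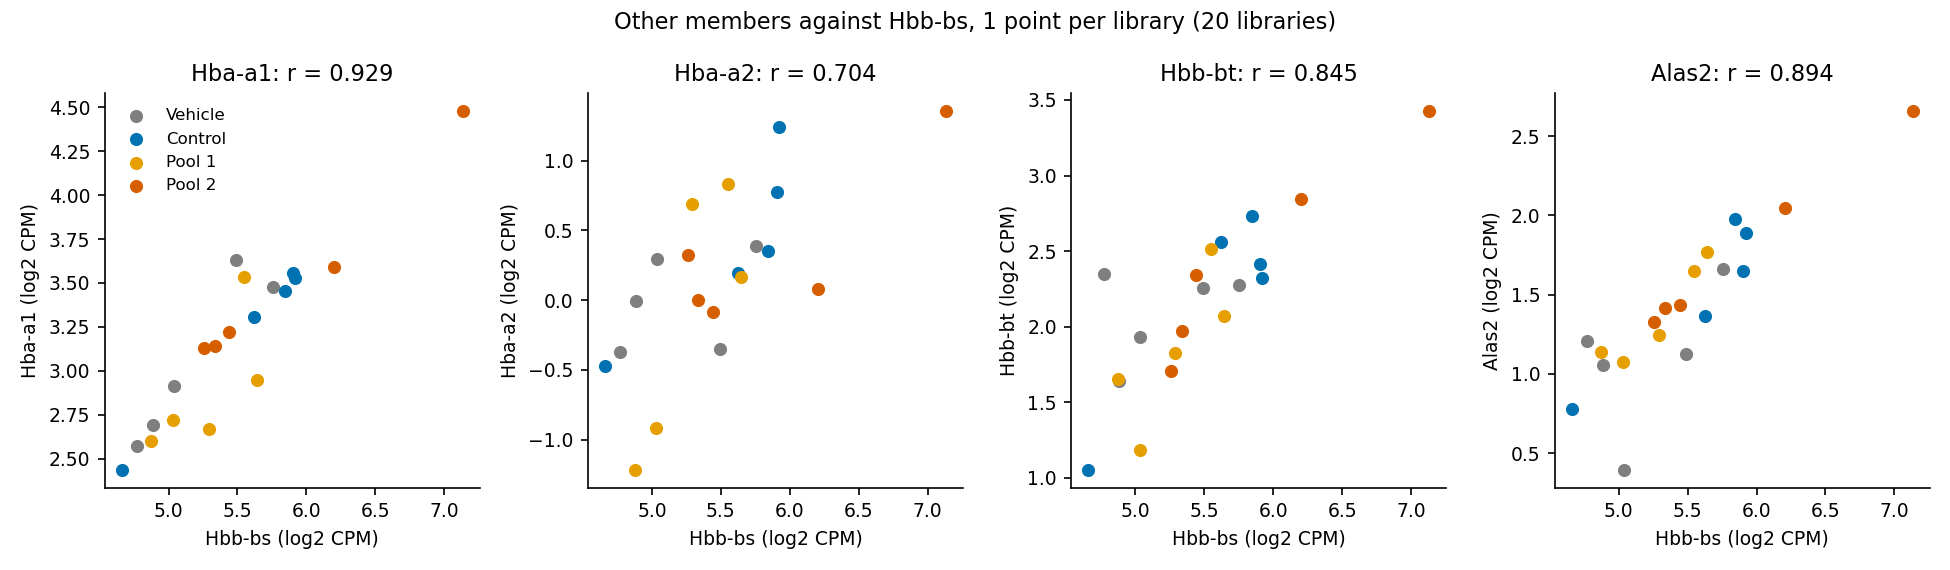
Log2 CPM of Hba-a1, Hba-a2, Hbb-bt and Alas2 (y axes) against log2 CPM of Hbb-bs (x axes), 1 point per mouse, colored by group. The point far to the upper right in each panel is Pool 2 replicate 1, and mice of all 4 groups lie along the same slope, with r of 0.929, 0.704, 0.845 and 0.894.

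Each patient pool was compared with Control mice to ask what sRNAs of patients change beyond sRNAs of control individuals. These comparisons and that of Control with Vehicle share the Control mice, so their values are not independent. The 5 genes rose and fell together, so a shared direction among them does not count as 5 separate results. Genes were called at the fold and p thresholds of the study, where the log2 fold change was 0.3 or more in either direction and the unadjusted p was under 0.05, here in edgeR's quasi-likelihood test over all 25190 genes. The study also dropped genes with low mean counts, which was not done here. With genes averaging under 10 normalized counts left out, 402 of 16644 genes were called in Pool 1 against Control, 969 in Pool 2 against Control, 795 in Control against Vehicle and 1133 in Pool 2 against Pool 1, while the calls among the 5 genes were unchanged. Adjusted p-values are Benjamini-Hochberg values over these genes. In Pool 1 mice, 0 of the 5 genes were called, where 1.48% of all genes were called higher and 1.99% lower. At an adjusted p under 0.05, 0% of all genes were called (1314 genes had an unadjusted p under 0.05). The 5 log2 fold changes were all negative, with −0.37 for Hba-a1, −0.44 for Hba-a2, −0.35 for Hbb-bs, −0.41 for Hbb-bt and −0.19 for Alas2. The SE was 0.277 to 0.399, and the adjusted p by edgeR was 0.928 to 0.979. The interval of ± 2 SE for Hbb-bs ran from −1.04 to 0.34 and thus held both falls and small rises. Without Control replicate 4, the lowest library, Hbb-bt was called lower at −0.61 (edgeR adjusted p = 0.643), and no other member was, where 1249 of 25190 genes were called in either direction.

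In Pool 2 mice compared with Control mice, 0 of the 5 genes were called, where 5.2% of all genes were called higher and 1.01% lower. At an adjusted p under 0.05 the share of all genes was again 0% (1939 had an unadjusted p under 0.05). The log2 fold change was 0.31 for Hba-a1, 0.41 for Hbb-bs, 0.28 for Hbb-bt and 0.29 for Alas2, but −0.09 for Hba-a2. The SE was 0.273 to 0.391 and the adjusted p by edgeR 0.843 to 0.980. Without Pool 2 replicate 1 the 4 positive values became −0.02 for Hba-a1, −0.04 for Hbb-bs, −0.03 for Hbb-bt and −0.00057 for Alas2, and Hba-a2 had −0.47. The higher levels in Pool 2 than in Control were thus not seen without that mouse. Its microglia genes summed to 1098 CPM, against 373 to 582 CPM in the Vehicle, Control and Pool 1 libraries, and its lymphocyte and monocyte genes to 16.9 CPM, against 0.318 to 3.67 CPM there. The part of these cells in the result was not tested.

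Control and Vehicle mice were compared to see the effect of infused human sRNA itself. Again 0 of the 5 genes were called, where 1.7% of all genes were called higher and 3.41% lower. At an adjusted p under 0.05 the share was 0% (1672 had an unadjusted p under 0.05). All 5 log2 fold changes were positive, with 0.19 for Hba-a1, 0.54 for Hba-a2, 0.42 for Hbb-bs, 0.20 for Hbb-bt and 0.46 for Alas2. The SE was 0.279 to 0.400 and the adjusted p by edgeR 0.788 to 0.960. Alas2 came closest to the threshold, with an interval of ± 2 SE from −0.10 to 1.02. It passed without Control replicate 4 (0.62, edgeR adjusted p = 0.509) and without Vehicle replicate 1 (0.64, edgeR adjusted p = 0.974), where 1603 and 1034 of 25190 genes were called in either direction. Without Vehicle replicate 4, where Alas2 was lowest, its value was 0.32.

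Pool 2 was compared with Pool 1 because both received sRNAs of patients. Here 3 of the 5 genes were called higher, where 5.66% of all genes were called higher and 1.16% lower. The 3 genes had r of 0.843 to 0.929 with each other over the 20 mice, so their calls are not independent. Hba-a1 had a log2 fold change of 0.68 (SE 0.288, edgeR adjusted p = 0.513), with 2 of 5 Pool 2 libraries above all Pool 1 libraries. Hbb-bs had 0.76 (SE 0.346, edgeR adjusted p = 0.560), and Hbb-bt 0.69 (SE 0.321, edgeR adjusted p = 0.568), each also with 2 of 5 libraries above. Hba-a2 had 0.34 (SE 0.400, edgeR adjusted p = 0.902) and Alas2 0.48 (SE 0.275, edgeR adjusted p = 0.675), neither past the threshold. None of these passed the correction for multiple tests, nor did any gene (smallest adjusted p over all genes 0.0896 by edgeR, and 2146 genes with an unadjusted p under 0.05). The groups overlapped for each of the 5 genes. With the counts of each globin pair summed before the fit, which sets aside the uncertain division within a pair, both the α sum (0.65) and the β sum (0.76) were called.

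The calls between the pools depended on single mice. Without Pool 2 replicate 1, the library that stood apart, 0 of the 5 genes were called, where 1190 of all 25190 genes were (1718 with all mice), and the log2 fold change was 0.35 for Hba-a1, 0.31 for Hbb-bs and 0.38 for Hbb-bt. Without Vehicle replicate 4 and Pool 2 replicate 1 together, 0 of the 5 genes were called, where 3.91% of all genes were called higher. Leaving out Pool 1 replicate 1, 2 or 4 in turn also left 0 calls, where 1819, 1531 and 1604 of all genes were called. Hbb-bs then had 0.70, 0.76 and 0.67, Hba-a1 had 0.63, 0.62 and 0.61, and Hbb-bt had 0.55, 0.67 and 0.63. Without Pool 2 replicate 2 only Hba-a1 was called, while Hbb-bs had 0.73 and Hbb-bt 0.62. Without Pool 1 replicate 5, Hbb-bt (0.73) lost its call. Without Pool 2 replicate 4, Alas2 was called too, at 0.59 (edgeR adjusted p = 0.621).

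**Figure D4:**
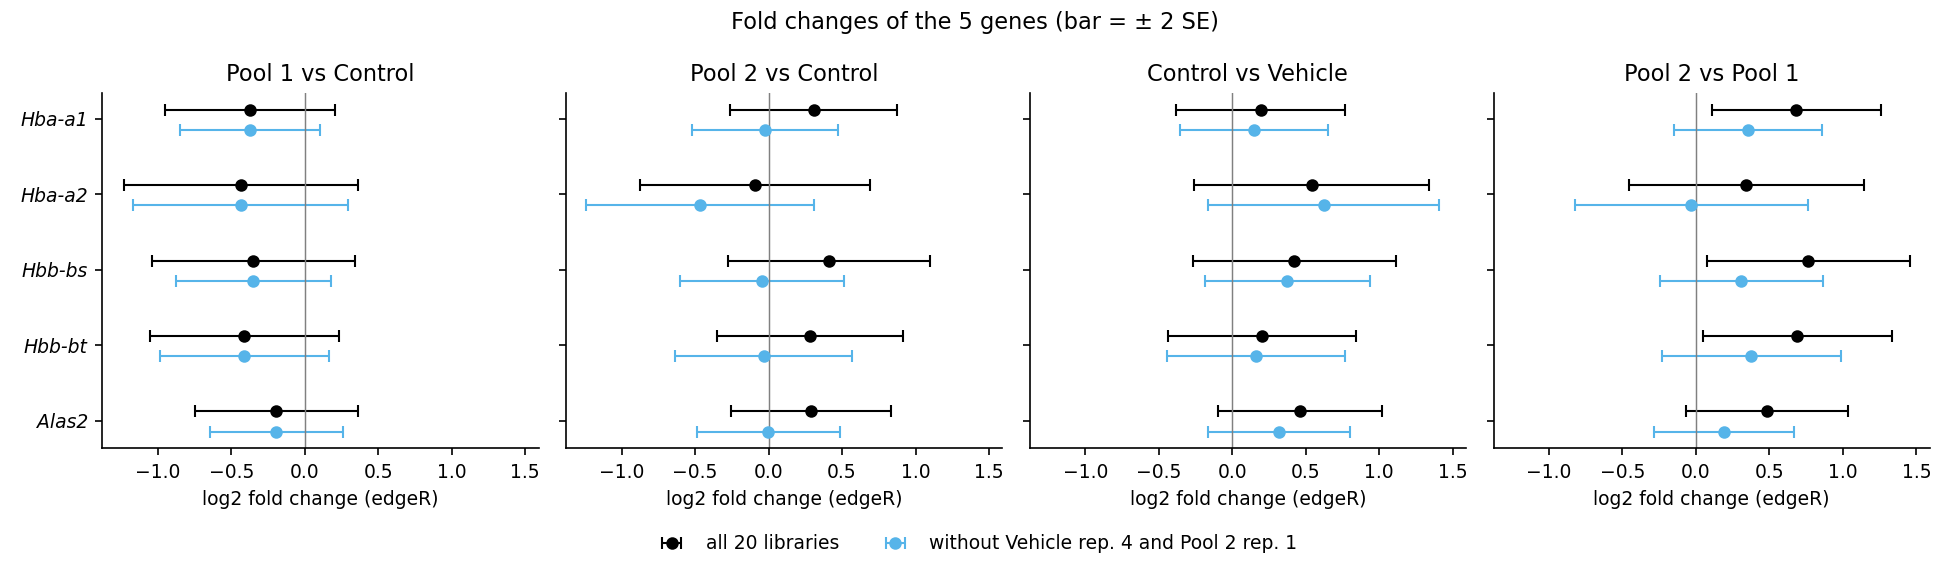
Log2 fold change by edgeR (x axis, point ± 2 SE) of the 5 genes (y axis) in the 4 comparisons, with all 20 libraries in black and without Vehicle replicate 4 and Pool 2 replicate 1 in blue. The black bars clear 0 only for Hba-a1, Hbb-bs and Hbb-bt in Pool 2 against Pool 1, and no blue bar clears 0.

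Many other genes that mark red cells had few counts. Of 22 genes in the red cell list, 17 were in the table, and Slc4a1, Epb42, Rhd, Kel, Car1, Tspo2, Klf1 and Trim10 never exceeded 14 counts in a library. Sptb, Ank1, Bpgm and Slc25a37 had 456 to 10710 counts per library, and brain cells also use these genes. Tfr2 (transferrin receptor 2) had 108 to 194 counts and Epor (the erythropoietin receptor) 77 to 176, with r of 0.00951 and 0.23 with Hbb-bs. Of the 17, 1 was called higher and 0 lower in Pool 1 against Control, and likewise in Pool 2 against Control, while 0 were called higher and 1 lower in Control against Vehicle. The median log2 fold change was 0.13, 0.34 and −0.04 in these comparisons, where the median over all genes was −0.01, 0.00294 and −0.01. Ank1, which encodes the ankyrin that ties the red cell membrane to its skeleton, was the gene called against Control, with 0.33 in Pool 1 (edgeR adjusted p = 0.917) and 0.34 in Pool 2 (edgeR adjusted p = 0.640). Its level had r = −0.20 with Hbb-bs. Tspo2 was called in Control against Vehicle on 0 to 14 counts per library, and no fold is given for it.

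The other genes of heme synthesis were called in no comparison. All 8 genes of the list, enzymes that every cell uses such as Alas1, Alad and Fech, were measured and 0 were called in any of the 4 comparisons. Their median log2 fold change was 0.00321, −0.04, 0.07 and −0.01 in Pool 1 against Control, Pool 2 against Control, Control against Vehicle and Pool 2 against Pool 1. Alas1, the housekeeping counterpart of Alas2, had 55.4 to 74.2 CPM in the 20 libraries, a narrower range than that of Alas2. Of the other globins, 4 of 9 were in the table. Cygb (cytoglobin) had 47.9 to 74.4 CPM and was called in no comparison. Ngb (neuroglobin) was called lower in Control than in Vehicle mice (log2 fold change −0.83, edgeR adjusted p = 0.734). Hbq1a was called lower in Pool 1 than in Control on at most 7 counts, and Hbq1b in no comparison. Without Vehicle replicate 4 and Pool 2 replicate 1, Hbq1a was also called higher in Pool 2 than in Pool 1.

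Genes that handle heme and iron were measured for 15 of 16. In Pool 2 against Pool 1, 4 were called higher and 0 lower, with a median of 0.15 (0.02 over all genes). They were Cp (ceruloplasmin, a ferroxidase, 0.64, edgeR adjusted p = 0.280), Hmox1 (heme oxygenase 1, which breaks down heme, 0.46, edgeR adjusted p = 0.480), Blvrb (biliverdin reductase B, 0.36, edgeR adjusted p = 0.566) and Spic, which had 0 counts in each Pool 1 library and at most 4 elsewhere. Without Vehicle replicate 4 and Pool 2 replicate 1, 3 were called higher, namely Cp, Spic and Cd163. Of the same 15 genes, 0 were higher and 1 was lower (Spic) in Pool 1 against Control. In Pool 2 against Control, 1 was higher (Cp, 0.61, edgeR adjusted p = 0.479) and 0 lower. Without Vehicle replicate 4 and Pool 2 replicate 1, Cp and Cd163 were called higher there. In Control against Vehicle, 0 were higher and 1 was lower (Hp). Pool 2 replicate 1 had the highest level of Hmox1 (10.5 CPM), Blvrb (9.96 CPM) and Ftl1, the ferritin light chain (140.1 CPM), of the 20 libraries.

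Markers of other cells that blood or vessels bring were set beside the members. Platelet genes (8 of 11 measured) summed to 3.50 to 6.60 CPM, and Pool 2 replicate 1 was not the highest library. Of these, 1 was called higher in Pool 2 against Control (Alox12) and 1 in Pool 2 against Pool 1 (Pf4), with list medians of 0.38 and 0.29. Neutrophil genes summed to 39.3 CPM in Pool 2 replicate 1 and to 9.26 to 19.3 CPM in the Vehicle, Control and Pool 1 libraries. Csf3r alone made up 34.6 CPM of the sum in Pool 2 replicate 1. S100a8 and S100a9 had at most 19 counts in a library, Cxcr2 at most 10 and Mpo at most 7. Of 11 neutrophil genes measured, 2 were called higher in Pool 2 against Control (Mpo and Csf3r). In Pool 2 against Pool 1, 4 were called higher (S100a8, Cxcr2, S100a9 and Csf3r). The medians were 0.82 and 0.84, where the medians over all genes were 0.00294 and 0.02. Without Vehicle replicate 4 and Pool 2 replicate 1, 1 and 2 neutrophil genes were called higher. In Pool 1 against Control and in Control against Vehicle, 0 neutrophil genes were called. Without these libraries Cxcr2 and S100a8 were called lower in the first and Csf3r in the second. Of 13 lymphocyte and monocyte genes, 7 were called higher in Pool 2 against Control and 8 in Pool 2 against Pool 1 (medians 2.17 and 2.16), and without Vehicle replicate 4 and Pool 2 replicate 1 the counts were 2 and 2. Examples are Nkg7 and Ccr2 in the first comparison and Plac8 and Cd8a in the second, all with at most 68 counts per library. In Control against Vehicle, 1 of these genes (Ccr2) was lower, and in Pool 1 against Control 0 were called. Without Vehicle replicate 4 and Pool 2 replicate 1, Nkg7 and Ccr2 were lower in Control against Vehicle. Nkg7 was then called higher in Pool 1 against Control. Endothelial genes summed to 256 to 436 CPM in Vehicle, Control and Pool 1 libraries and to 534 CPM in Pool 2 replicate 1, and 4 of 14 were called higher in each Pool 2 comparison, Pecam1 and Vwf in both, with medians of 0.30 and 0.24, and 2 and 1 without these libraries. Of 10 mural genes, 6 and 5 were called higher in these comparisons, Cnn1 and Acta2 in both, with medians of 0.53 and 0.55. Without these libraries 7 and 4 mural genes were called higher, with medians of 0.59 and 0.62. Of 8 microglia genes, 3 and 6 were called higher, Cx3cr1 and C1qa in both, with medians of 0.36 and 0.48, and without Vehicle replicate 4 and Pool 2 replicate 1, 0 and 0. Mural genes such as Acta2 and Cnn1 were highest in Pool 2 replicate 4, and 2 of 10 were highest in Pool 2 replicate 1. The neutrophil, lymphocyte and monocyte, endothelial and microglia genes were high with the members in Pool 2 replicate 1, and their part in the result was not tested.

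The genes most like Hbb-bs were sought among 16639 other genes whose normalized counts averaged 10 or more, as a description over libraries that share 1 library standing apart. No other gene had a higher r with Hbb-bs than Hba-a1 (0.929), Alas2 (0.894) or Hbb-bt (0.845), whereas 73 had a higher r than Hba-a2 (0.704). Closest was Stom (r = 0.845), which encodes stomatin, an abundant protein of the red cell membrane that other cells also make. It ran from 8.96 to 22.3 CPM, the latter in Pool 2 replicate 1. Ngdn followed with r = 0.810. The next were Sdc4 (0.808), Nfkbia (0.806), Cybc1 (0.797), Mcl1 (0.788), C1qb (0.785), Prdm1 (0.782) and Casp1 (0.782). All of these but Ngdn were highest in Pool 2 replicate 1. Without that library only Ngdn (0.814) and Stom (0.736) stayed among the 10 closest genes, and the number of genes with r over 0.7 fell from 79 to 6. The members kept r of 0.884 (Hba-a1), 0.839 (Alas2), 0.778 (Hbb-bt) and 0.620 (Hba-a2) in the 19 remaining libraries.

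**Figure D5:**
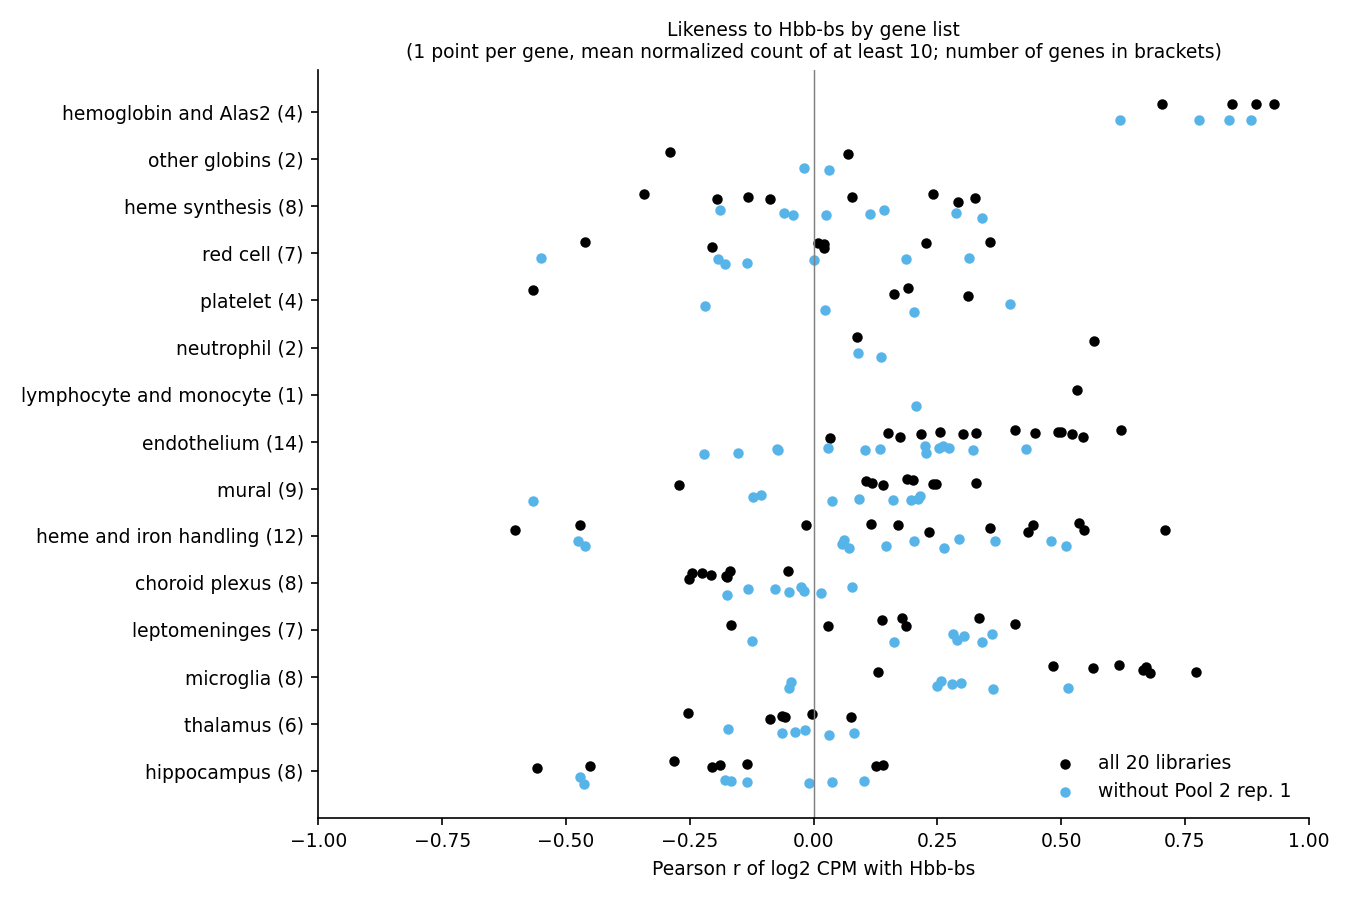
Pearson r of log2 CPM with Hbb-bs (x axis) for single genes of the fixed lists (y axis, number of genes with normalized counts averaging 10 or more in brackets), over 20 libraries in black and without Pool 2 replicate 1 in blue. Hba-a1, Hba-a2, Hbb-bt and Alas2 lie at 0.704 to 0.929 in black and 0.620 to 0.884 in blue, while the median of microglia genes moves from 0.641 to 0.269 and that of endothelial genes from 0.367 to 0.180.

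By list, the median r with Hbb-bs was −0.01 for heme synthesis, 0.02 for red cell, 0.177 for platelet, 0.295 for heme and iron, 0.189 for mural and 0.641 for microglia genes. Without Pool 2 replicate 1 these were 0.07, −0.13, 0.113, 0.174, 0.09 and 0.269. The red cell value rests on 7 genes with normalized counts averaging 10 or more. Among them Bpgm, which makes the bisphosphoglycerate that lowers the oxygen affinity of hemoglobin, had r = 0.356 and Sptb, the β spectrin that neurons also express, −0.46. For dissection, the choroid plexus, thalamus, hippocampus and leptomeningeal genes had medians of −0.19, −0.06, −0.20 and 0.178. Leaving out Pool 2 replicate 1 gave −0.04, −0.03, −0.15 and 0.290. In Pool 2 against Pool 1, where 3 of the 5 members were called, 6 of 6 thalamus genes (median log2 fold change 1.27) and 4 of 7 leptomeningeal genes (median 1.01) were called higher, and against Control 3 and 1. Without Vehicle replicate 4 and Pool 2 replicate 1 these counts were 6 and 6 against Pool 1, and 4 and 2 against Control. The part of tissue share in the members' values was not tested.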

How the data were processed

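The authors made stranded poly(A) libraries, sequenced them as 50-base single-end reads, checked them with FastQC (0.11.5, per the labels), aligned them to GRCm38 with STAR and counted reads per gene with GENCODE M20. They deposited raw counts, with genes of low summed counts left out. Each library's 2 rounds of sequencing are 1 column. From these counts, CPM with TMM factors and edgeR 4.0.16 quasi-likelihood tests (robust, R 4.3.3) were computed in 1 fit of 20 libraries in 4 groups, with Benjamini-Hochberg adjustment over 25190 genes. DESeq2 1.42.0, other size factors, filters, samples, a replicate block and summed paralogs were alternatives. Correlations used 100000 permutations. Scripts were tested on simulated data. The members and lists were chosen with earlier results of these data known. Named were the 5 members, list genes past the threshold (at most 4 per list and comparison, by smallest p) and the 10 genes most like Hbb-bs. A few genes of these are not reported here. Apex2, Tfr2, Epor, Cygb, Hbq1b, Alas1, Bpgm, Sptb, Ftl1, Cd163 and genes listed as members of a list were named after their values were seen. Positions and transcripts came from GENCODE M21 and promoters from RefSeq. Windows were sought in annotated transcripts only.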

Additional observations from a re-analysis of the deposited data

Results flagged for a closer look

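For 2 of the 5 genes, Pool 2 replicate 1 lay farther from the other mice of its group than Dixon's test allows at 5 samples (critical ratio 0.71). For Hba-a1 it had 22.2 CPM, where the next highest mouse of Pool 2 had 11.96, a gap of 0.757 of the range of the group. For Hba-a2 it had 2.47 CPM, where the next highest had 1.17, a gap of 0.808 of the range. In all, 20 groups of 5 values were tested, and chance flags about 1 in 20. Hbb-bs in the same mouse, 140.2 CPM, missed the criterion with 0.653, since Pool 2 replicate 2 was high as well.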

How the results depend on the processing

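Most changes of direction came without Pool 2 replicate 1. There the log2 fold change of Pool 2 over Control was −0.0233 for Hba-a1, −0.0437 for Hbb-bs, −0.0341 for Hbb-bt and −0.00057 for Alas2, and without Vehicle replicate 4 as well −0.0231, −0.0437, −0.0337 and −0.000297. Over all single mice left out, these values ran from there to 0.41, 0.56, 0.44 and 0.41, and Hba-a2 ran from −0.47 to 0.17 (0.00412 without Pool 2 replicate 3 and 0.02 without replicate 5). Hba-a2 in Pool 2 over Pool 1 ran from −0.0313 to 0.60, and was −0.0309 without both libraries. With single mice left out, the number of the 5 genes called ran from 0 to 1 in Pool 1 against Control and in Control against Vehicle, was 0 in Pool 2 against Control and ran from 0 to 4 in Pool 2 against Pool 1. In the last comparison it was 1 with only the 2 groups in the fit (Hbb-bs 0.72 and Hbb-bt 0.65 lost their calls), 0 without Vehicle replicate 4 and Pool 2 replicate 1, 3 in DESeq2 and 2 with edgeR's filter on low counts, where Hbb-bt (0.66) lost its call. In the other comparisons DESeq2 called 0. Equal replicate numbers did not mark paired mice (correlations of deviations −0.321 to 0.265, 7 of 20 over 0.1), and with the replicate number as a block 3 of 5 genes were called in Pool 2 against Pool 1 and 0 in the others. The leave-outs for the gene lists and for likeness to Hbb-bs were chosen after seeing the data. Correlations among the 5 genes kept their direction and side of the threshold under all 40 alternatives. The depth limits Hba-a2 most, with 8 counts in its lowest library.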
